A study of Mus musculus with 3 samples.

Results

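The 4 genes of the nuclear factor I (NFI) family, Nfia, Nfib, Nfic and Nfix, were followed through single-nucleus chromatin accessibility of mouse limb mesenchymal progenitors (MPs). Every peak called in any of the 3 libraries was taken if it overlapped a gene body or the 20 kb on either side of it, which gave 612 of 506515 peaks: 215 of 190443 at embryonic day (E) 12.5, 158 of 102459 at E14.5 and 239 of 213613 at E16.5. The windows were chr4:97752734-98138874 for Nfia, chr4:82270173-82725750 for Nfib, chr10:81376186-81475635 for Nfic and chr8:84679876-84820344 for Nfix (mm10). The peaks were taken by position alone, but the 4 genes were chosen with earlier results of these data known.

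NFI proteins bind DNA as dimers to a palindrome of a short motif and its reverse complement, and they can act as activators or repressors depending on the promoter. NFI factors are known for driving late steps of differentiation in several lineages: Nfia and Nfib in glia and in the developing lung and brain, Nfic in tooth roots and bone, and Nfix in the switch from embryonic to fetal muscle.

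Each stage was 1 library of tdTomato+ nuclei from Hic1CreERT2/CreERT2;Rosa26LSLtdTomato/tdTomato embryos, so both alleles of Hic1 carried the Cre in every group and no wild-type or untreated group is among these libraries. Tamoxifen (7.5 mg) was given at embryonic day 10 at all stages, so the label marks cells that expressed Hic1 around that time, and their descendants. Cells were sorted free of blood, endothelial and macrophage surface markers and limbs of several embryos were pooled. The E16.5 library came from the elbow segment alone, and the E12.5 tissue was digested with a different enzyme from the later stages. The file headers also name a different Cell Ranger ATAC version for E16.5 (1.2.0) than for the 2 earlier stages (1.0.1). Stage, limb segment, digestion, the software version named and library therefore cannot be told apart.

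With 1 library per stage no test of a stage difference was possible, and the 95% intervals given here cover counting error only. The libraries held 8294, 20023 and 14048 nuclei with a median of 6003.5, 8575 and 26694 cut sites in peaks per nucleus (values in threes are in the order of the stages), and pairs of libraries shared between 151 and 401 barcodes. Peaks were also called at different widths: within the 4 windows they covered 252114, 165944 and 350196 bp. In pools of this kind, fewer cells with an open element and less opening per cell cannot be told apart. Markers of other cell types were present in part: the summed accessibility of 5 myogenic genes was 116, 72.4 and 83.9 CPM (cut sites per 1000000 in autosomal common intervals, defined below), that of 4 endothelial genes 116, 121 and 150, that of 4 blood genes 82.5, 79.9 and 69.3 and that of 5 epithelial genes 97.4, 64.3 and 65.1, against 1614, 1350 and 1334 for 9 MP genes, Hic1 among them. Schwann cell genes summed to 98.3, 103 and 107 CPM, fibrogenic genes to 225, 254 and 404 and chondrogenic genes to 997, 722 and 640. Their part in the values below was not tested.

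The peaks of the 3 libraries fell into 265 merged regions, 81 at Nfia, 131 at Nfib, 22 at Nfic and 31 at Nfix. Of these, 121 (45.7%) held a peak of every library, against 31.8% of all autosomal regions, and these common intervals carry the comparisons: 31 at Nfia, 58 at Nfib, 13 at Nfic and 19 at Nfix. Another 63 regions (23.8%) were called only at E16.5, 28 (10.6%) only at E12.5 and 1 (0.377%) only at E14.5, where 27.4%, 19.5% and 0.257% of all autosomal regions were. Of the others, 44 (16.6%, against 17.2%) were called at E12.5 and E16.5, and 8 (3.02%, against 2.82%) in the 2 later libraries. A region that is not listed in a library has no value there, since no count is given outside a library's own peaks.

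The sequences of 8 elements on which the results turn are shown here from the mm10 (GRCm38) reference, each 300 bases long. The first is the Nfic promoter whose interval rose most, printed along the direction of transcription. Then follow, on the plus strand, the centres of 5 distal intervals, among the largest rises and falls at Nfia, Nfib and Nfix, whose change was also past 2-fold per kb of called width, and finally the Nfib intervals that differed most between nuclei gated on chondrogenic or tenogenic marker genes. Capitals mark NFI core sites (TTGGC, or GCCAA on the other strand) and, in the promoter, the first transcribed base. Intronic means inside the gene record and outside annotated exons and promoters. Start sites named here are those of GENCODE basic transcripts. The Nfib fall and both gated Nfib elements lie upstream of these Nfib starts but inside the gene record, whose 5′ end is at chr4:82705750.
Nfic promoter, chr10:81427065-81427364, minus strand: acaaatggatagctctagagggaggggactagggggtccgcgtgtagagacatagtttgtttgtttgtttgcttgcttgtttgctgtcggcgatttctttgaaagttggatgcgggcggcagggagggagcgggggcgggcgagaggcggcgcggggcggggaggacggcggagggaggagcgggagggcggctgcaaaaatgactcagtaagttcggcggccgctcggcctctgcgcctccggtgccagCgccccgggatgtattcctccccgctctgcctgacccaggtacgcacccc
Nfia intronic rise, chr4:97968726-97969025: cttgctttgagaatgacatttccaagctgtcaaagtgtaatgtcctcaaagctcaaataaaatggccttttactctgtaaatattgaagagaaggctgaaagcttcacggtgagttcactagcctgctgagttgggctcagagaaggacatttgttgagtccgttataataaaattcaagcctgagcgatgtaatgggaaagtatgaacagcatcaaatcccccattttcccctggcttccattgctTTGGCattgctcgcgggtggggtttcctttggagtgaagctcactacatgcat
Nfia intronic fall, chr4:97885734-97886033: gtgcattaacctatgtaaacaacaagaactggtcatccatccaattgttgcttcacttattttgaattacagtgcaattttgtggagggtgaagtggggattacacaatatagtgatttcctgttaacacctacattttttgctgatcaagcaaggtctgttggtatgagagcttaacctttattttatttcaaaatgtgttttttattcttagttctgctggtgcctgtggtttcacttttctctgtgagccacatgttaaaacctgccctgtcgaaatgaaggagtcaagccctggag
Nfib intronic rise, chr4:82447162-82447461: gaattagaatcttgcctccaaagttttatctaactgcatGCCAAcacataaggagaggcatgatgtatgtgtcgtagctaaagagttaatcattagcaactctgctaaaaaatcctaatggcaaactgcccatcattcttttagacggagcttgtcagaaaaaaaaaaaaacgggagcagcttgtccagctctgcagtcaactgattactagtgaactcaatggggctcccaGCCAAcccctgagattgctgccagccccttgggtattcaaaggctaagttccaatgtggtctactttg
Nfib intronic fall, chr4:82634346-82634645: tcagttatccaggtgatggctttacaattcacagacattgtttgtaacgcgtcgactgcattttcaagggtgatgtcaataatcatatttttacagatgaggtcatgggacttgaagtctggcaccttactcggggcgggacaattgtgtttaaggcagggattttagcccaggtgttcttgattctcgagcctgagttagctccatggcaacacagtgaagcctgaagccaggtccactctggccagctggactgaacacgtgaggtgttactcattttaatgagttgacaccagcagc
Nfix intronic rise, chr8:84794204-84794503: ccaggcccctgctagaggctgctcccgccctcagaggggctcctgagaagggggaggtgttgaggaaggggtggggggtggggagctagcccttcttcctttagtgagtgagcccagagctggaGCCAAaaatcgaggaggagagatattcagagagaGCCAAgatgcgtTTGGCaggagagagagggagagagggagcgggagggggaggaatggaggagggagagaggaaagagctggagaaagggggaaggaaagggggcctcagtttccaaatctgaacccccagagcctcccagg
Nfib chondrogenic-low element, chr4:82572927-82573226: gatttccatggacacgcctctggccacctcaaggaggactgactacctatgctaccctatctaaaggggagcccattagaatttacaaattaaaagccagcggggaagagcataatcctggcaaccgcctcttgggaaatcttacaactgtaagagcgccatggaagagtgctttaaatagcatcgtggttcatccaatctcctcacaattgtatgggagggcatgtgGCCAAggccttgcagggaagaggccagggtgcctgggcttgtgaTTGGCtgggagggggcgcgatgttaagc
Nfib tenogenic-high element, chr4:82615645-82615944: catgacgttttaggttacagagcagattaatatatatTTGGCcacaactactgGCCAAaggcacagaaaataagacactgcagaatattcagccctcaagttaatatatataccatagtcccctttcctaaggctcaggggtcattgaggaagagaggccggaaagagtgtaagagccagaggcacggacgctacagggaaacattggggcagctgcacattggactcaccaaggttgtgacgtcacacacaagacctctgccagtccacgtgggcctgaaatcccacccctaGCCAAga

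All 4 NFI genes lay in widely open chromatin at every stage, and the sum over each window changed little. Summed over its common intervals, the Nfib window held 488, 557 and 622 CPM, the Nfix window 490, 538 and 537, the Nfia window 423, 390 and 447 and the Nfic window 246, 290 and 311. Per kb of window the sums were larger at the compact genes, 2.48 to 3.13 CPM per kb at Nfic and 3.49 to 3.83 at Nfix. They were 1.01 to 1.16 at Nfia and 1.07 to 1.36 at Nfib. At Nfic, however, 56.3%, 53.1% and 54.1% of the sum lay at promoters of other genes. At Nfix 24.4%, 21.9% and 20.9% did, and at most 8.03% at Nfia and 7.96% at Nfib. Each window stood at or above the 97.3rd percentile of 17506 autosomal protein-coding genes in total CPM, a ranking that favours long genes.

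The log2 ratio E16.5/E12.5 was 0.35 for Nfib (95% interval 0.33 to 0.37), 0.34 for Nfic (0.30 to 0.37), 0.13 for Nfix (0.11 to 0.16) and 0.08 for Nfia (0.05 to 0.10), where the median gene was at -0.0049. Nfib and Nfic thus stood at the 87.8th and 87.1st percentile of genes, and Nfix and Nfia at the 68.3rd and 61.3rd. None of the 4 was past 1.5-fold in either direction, where 5.08% of genes were past it upwards and 6.84% downwards. Over the E14.5/E12.5 step the ratios were 0.24 for Nfic, 0.19 for Nfib, 0.13 for Nfix and -0.12 for Nfia, beside a median of 0.12 over genes, and again none was past 1.5-fold (background 3.23% up and 6.35% down). Over the E16.5/E14.5 step they were 0.20 for Nfia, 0.16 for Nfib, 0.10 for Nfic and -0.0017 for Nfix, all above the gene median of -0.13, with none past 1.5-fold (background 5.33% up and 3.13% down).

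These window sums depended on the width of the called peaks. Divided by that width, in kb, the E16.5/E12.5 ratio turned negative for Nfia (-0.09), Nfib (-0.13) and Nfix (-0.26) and was 0.01 for Nfic, where the median of all autosomal common intervals went from -0.01 to -0.17. Over the 21 common intervals whose peaks were of similar width in all libraries (the widest at most 1.5 times the narrowest), it was positive for all 4: 0.46 for Nfia, 0.30 for Nfib, 0.44 for Nfic and 0.21 for Nfix. These sums rest on 4, 12, 2 and 3 intervals, of which 11 of 21 were above 0, and at Nfib the median of such intervals was -0.063 with 5 of 12 above 0. The direction of the window sum of Nfia, Nfib and Nfix thus depends on how width is treated.

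**Figure D1:**
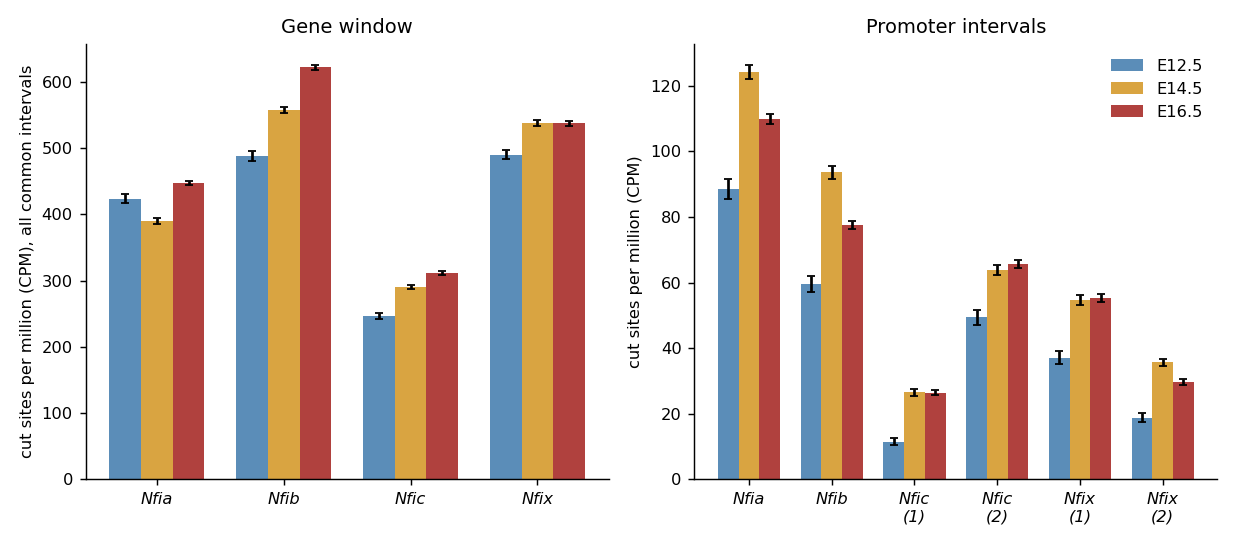
Accessibility of the 4 NFI genes by stage, in CPM with 95% intervals of counting error, 1 library per stage. Left, the sum over all common intervals of each gene window, where Nfib went from 488 to 622 CPM; right, the promoter intervals (numbered where a gene has several, in order of coordinate), where all 6 were higher at E14.5 and E16.5 than at E12.5.

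Each of the 6 common intervals at a basic NFI start site was higher in both later libraries than in the first. Every gene had at least 1. Starts outside the basic set were not used, although the Nfib gene record reaches further upstream, to chr4:82705750. The interval there, chr4:82705001-82707094, was open in 0.948%, 0.799% and 0.528% of nuclei at matched depth (defined below). A further annotated start, Nfic-207, lies in chr10:81455513-81455975, which was called at low level in the first and last library only (1.15 and 0.827 CPM) and so is not a common interval. The Nfic interval at chr10:81424064-81427645, which holds the starts of Nfic-201, Nfic-202 and Nfic-203, had 11.4 (10.4 to 12.6), 26.6 and 26.4 CPM. Its peaks were of similar width in the 3 libraries (3431, 3396 and 3582 bp), and the E16.5/E12.5 log2 ratio was 1.21 (1.07 to 1.35), or 1.15 per kb. The promoter sequence within it, shown above, is 64.3% G and C with 27 CpG, no NFI core site and 1 match to the AP-1 motif TGANTCA.

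The other promoter intervals changed by less than 2-fold. At the second Nfic interval, chr10:81429042-81435368, which holds the start of Nfic-204, the values were 49.4, 63.8 and 65.5 CPM. At Nfix, the interval of the upstream starts (chr8:84797145-84802011) had 18.8, 35.7 and 29.7 CPM and that of the internal starts (chr8:84770233-84776698) 37.0, 54.6 and 55.3. The single Nfib promoter interval (chr4:82502052-82508771), which also holds the promoter of Gm11266, had 59.4, 93.6 and 77.5 CPM. That of Nfia (chr4:97771454-97781470) had 88.4, 124 and 110. In CPM, Nfia, Nfib and the upstream Nfix starts were highest at E14.5, while at both Nfic intervals and the internal Nfix starts the 2 later stages differed by at most 0.04 (log2). Divided by peak width, in kb, all 6 were lower at E16.5 than at E14.5, by a log2 ratio of -0.08 at the Nfic-201 to Nfic-203 starts, -0.34 at Nfia, -0.81 at the other Nfic interval, -0.89 at Nfib and -0.95 and -1.25 at the internal and upstream Nfix starts.

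Promoters as a class differed between these libraries, and the NFI promoters lay above the promoter median for both later stages against E12.5. The median log2 E14.5/E12.5 ratio was 0.21 over 17423 promoter intervals and 0.61 over the 6 NFI intervals, which ranged from 0.37 to 1.22, all above that median. For E16.5/E12.5 the promoter median was -0.0089, with 49.0% of promoter intervals above 0, and the NFI median was 0.49 (0.31 to 1.21). Over the E16.5/E14.5 step the medians were -0.24 and -0.09. Divided by width, in kb, the E16.5/E12.5 values were 1.15 and -0.17 for the Nfic intervals, 0.40 and -0.19 for the internal and upstream Nfix starts, 0.04 for Nfia and -0.02 for Nfib, so the rise held its size per kb only at the Nfic-201 to Nfic-203 starts.

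The share of nuclei with an open NFI promoter was likewise lowest at E12.5 at matched depth. Each nucleus was thinned to 1309 fragment equivalents (cut sites divided by 2, rounded up), the 25th percentile at E12.5, which kept 6221, 19521 and 13834 nuclei. The Nfia promoter was open in 7.92% (7.27 to 8.62), 13.5% and 10.2% of nuclei. The Nfib promoter was open in 5.19%, 9.94% and 7.60%, the Nfic promoters in 5.61%, 9.27% and 8.78%, and the Nfix promoters in 5.35%, 10.1% and 8.35%. All 4 shares were lowest at E12.5, with 95% intervals below those of both later stages, and highest at E14.5, though for Nfic the intervals of the 2 later stages overlapped. Shares were not computed for the promoters of all genes. Over the windows of all genes the median log2 share ratio was 0.32 for E14.5/E12.5, -0.34 for E16.5/E14.5 and 0.0019 for E16.5/E12.5. The E14.5 library as a whole was richer in promoter fragments: 55.2% of its thinned fragments fell in promoter regions, against 41.8% at E12.5 and 41.1% at E16.5, and 95.5% in common intervals of any kind, against 83.3% and 79.2%. The part of these in the shares was not tested.

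Over the whole windows the shares were 33.5%, 37.1% and 35.5% for Nfia, 38.2%, 48.3% and 46.2% for Nfib, 21.5%, 27.5% and 27.6% for Nfic and 37.3%, 46.0% and 41.0% for Nfix. As log2 ratios E16.5/E12.5 these are 0.08 for Nfia (0.02 to 0.14), 0.27 for Nfib (0.22 to 0.32), 0.36 for Nfic (0.28 to 0.44) and 0.14 for Nfix (0.08 to 0.19), where the median over 17503 genes was 0.0019. Over the E14.5/E12.5 step that median was 0.32, and the members were at 0.15 for Nfia, the furthest under it, 0.34 for Nfib, 0.36 for Nfic and 0.30 for Nfix. At the thinned depth a nucleus without a fragment is not a closed nucleus.

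How often the 4 windows were open in the same nuclei was set beside the product of their separate shares. All 4 were open together in 1.14%, 2.32% and 2.18% of nuclei, where the product of the shares is 1.03%, 2.27% and 1.86%. No window was open in 20.8%, 12.8% and 16% of nuclei, against products of 20.2%, 12.7% and 14.8%. Both E16.5 products lay outside the counting intervals (1.94% to 2.43% for all 4 and 15.4% to 16.6% for none), and the others lay within theirs. The E12.5 intervals were the widest, since the fewest nuclei were kept there. No other set of 4 windows was compared. Whether the stages differ in this, or NFI windows from others, was not tested.

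**Figure D2:**
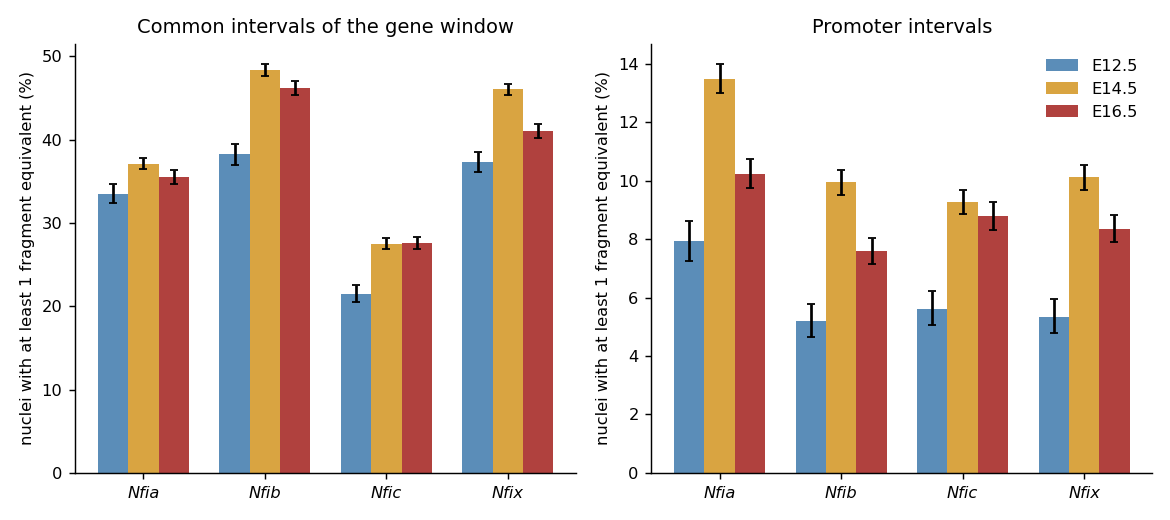
Share of nuclei with at least 1 fragment equivalent after thinning to 1309 per nucleus, in the common intervals of each NFI window (left) and in its promoter intervals (right), with exact 95% binomial intervals, 1 library per stage. Promoter shares lay between 5.19% and 7.92% at E12.5 and between 9.27% and 13.5% at E14.5.

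Single elements moved far more than the window sums, and in both directions. In the E16.5/E12.5 ratio 35 of the 121 NFI intervals (28.9%) were past 2-fold up, where 18.4% of all autosomal common intervals were, and 10 (8.26%) were past 2-fold down, where 16.5% were. The risers were 23 of 58 at Nfib, 7 of 31 at Nfia, 3 of 19 at Nfix and 2 of 13 at Nfic, and the fallers were 7 at Nfib and 3 at Nfia. Over the E14.5/E12.5 step 18 intervals were past 2-fold up and 24 down (background 10.5% and 20.5%), with 12 of the 24 at Nfia. Over the E16.5/E14.5 step 31 were up and 6 down (background 19.8% and 6.91%).

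Much of this moved with the width of the called peaks. Per kb of called width 12 of the 121 intervals were past 2-fold up and 5 down from E12.5 to E16.5, where 6.56% and 10.4% of all intervals were, and the median over the NFI intervals went from 0.24 to -0.06, beside a median over all intervals that went from -0.01 to -0.17. Among the 21 intervals of similar width, 4 were up and 1 was down, against 4.14% and 8.93% of 25482 such intervals. The elements described next are therefore given with the width of their peaks or their ratio per kb; such ratios are for E16.5/E12.5 unless named.

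**Figure D3:**
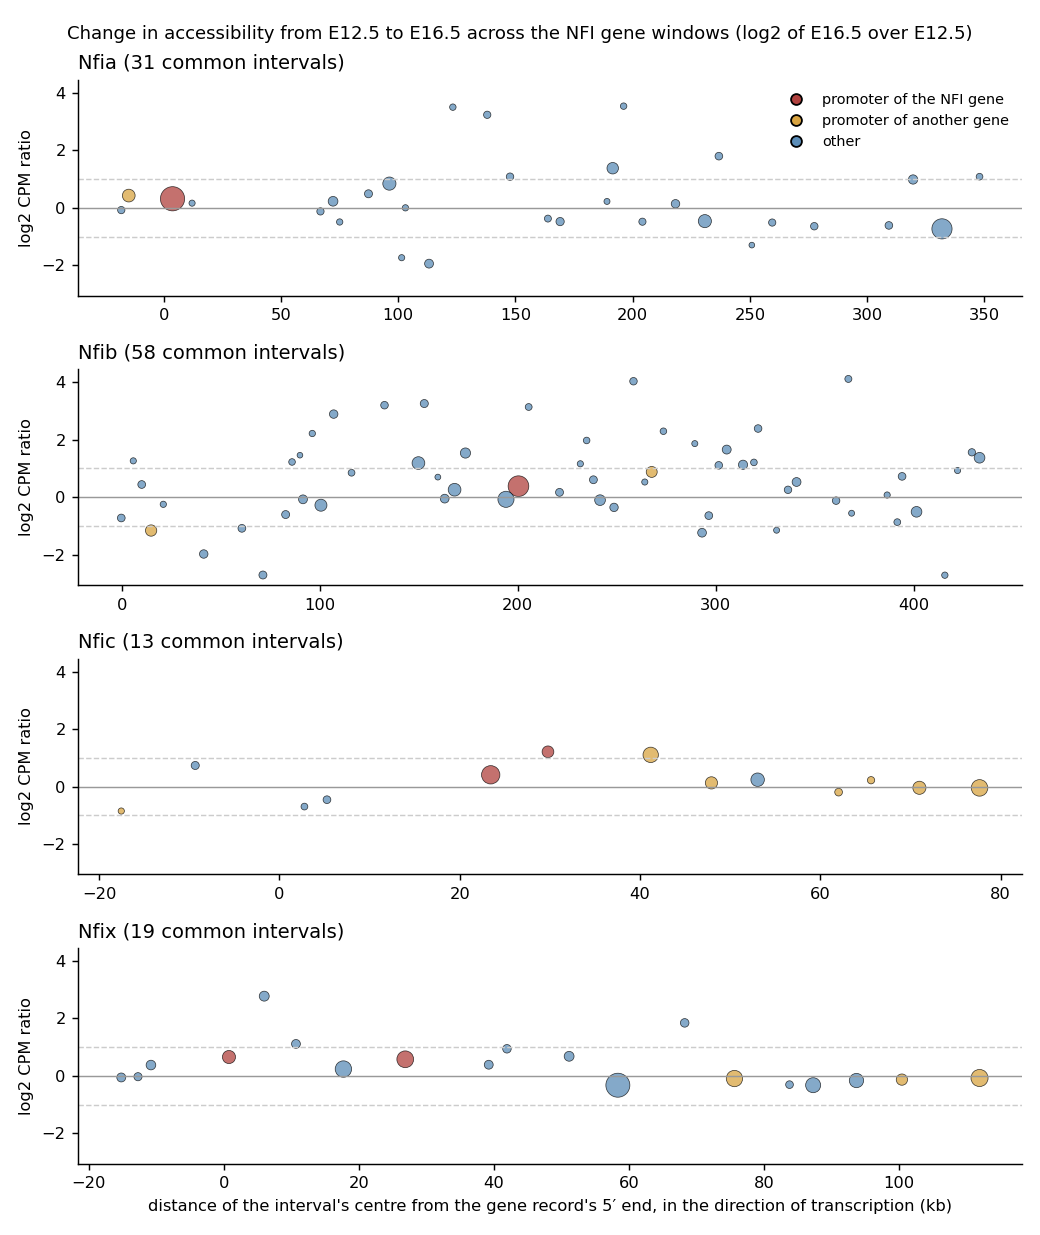
Log2 ratio of CPM, E16.5 over E12.5, of the 121 common intervals of the 4 NFI windows against the distance of the interval's centre from the 5′ end of the gene record (kb, in the direction of transcription). Point area grows with mean CPM, dashed lines mark 2-fold, and red and yellow mark promoters of the NFI gene and of other genes; Nfib holds 23 of the 35 intervals past 2-fold up.

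At Nfib, strong changes of both signs lay within the gene record. The interval at chr4:82446485-82448139, 58.0 kb downstream of the nearest start site, had 0.689 (0.471 to 0.973), 5.55 and 11.3 CPM, in peaks of 288, 787 and 1655 bp. Its log2 ratio E16.5/E12.5 was 4.03 (3.53 to 4.58), and 1.51 per kb. Its CPM was higher at each later stage, but per kb the E16.5/E14.5 log2 ratio was -0.05. The printed centre of this element holds 2 NFI core sites and 1 match to the RUNX motif TGTGGT. At matched depth it was open in 0.145%, 0.702% and 1.06% of nuclei. A second riser, at chr4:82338263-82339268, was highest at E14.5 (0.257, 8.74 and 4.43 CPM; 1.24 per kb for E16.5/E12.5), but its E12.5 value rests on 15 fragment equivalents in a peak of 138 bp.

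The opposite course was seen at chr4:82634026-82634966. It lies 128.7 kb upstream of the basic Nfib start sites but inside the gene record, 71.3 kb downstream of the record's 5′ end. It had 14.4 (13.2 to 15.7), 5.18 and 2.21 CPM, less at each stage, in peaks of 941, 590 and 559 bp. The log2 ratio E16.5/E12.5 was -2.71 (-2.90 to -2.52), and -1.96 per kb, the largest fall per kb among the elements named here. The share of nuclei in which it was open went from 1.56% to 0.738% and 0.289%. Its printed centre holds no NFI core site, 1 match to the SOX motif ACAATG and 1 to the E-box CAGCTG. Another faller, at chr4:82289368-82290686 over an exon at the 3′ end, had 4.93, 2.69 and 0.752 CPM, and -0.78 per kb. The Nfib interval with the most counts apart from the promoter, chr4:82509381-82514064, had 41.1, 54.2 and 39.1 CPM (-0.14 per kb).

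Nfia also held rising and falling intronic elements. The interval at chr4:97885142-97886626, 108.0 kb downstream of the nearest start site, had 18.3 (17.0 to 19.7), 7.32 and 4.77 CPM, with a log2 ratio E16.5/E12.5 of -1.94 (-2.09 to -1.79) and -1.13 per kb. The share of nuclei in which it was open was 1.77%, 1.0% and 0.477%. A neighbour at chr4:97873880-97874519 took the same course at a lower level (3.65, 2.39 and 1.1 CPM; -1.04 per kb). The most accessible Nfia interval away from the promoter, the 10551 bp stretch at chr4:98099400-98109950 near the 3′ end, had 103, 53.9 and 62.2 CPM and a log2 ratio E16.5/E12.5 of -0.73 (-0.66 per kb).

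The Nfia risers among the common intervals differed in timing. The interval at chr4:97968238-97969514 had 0.703, 0.469 and 8.14 CPM, so its CPM was high in the E16.5 library alone, in peaks of 249, 134 and 1277 bp (log2 ratio E16.5/E12.5 3.53, or 1.17 per kb). Per kb its E16.5/E14.5 log2 ratio was 0.86. That at chr4:97895642-97896429 was highest at E14.5, with 0.216, 6.41 and 2.44 CPM. Its E12.5 value rests on 14 fragment equivalents in a peak of 110 bp, and per kb its ratio was 0.69. Outside the common intervals, chr4:97794754-97797864 had 0.811 CPM at E12.5, no peak at E14.5 and 16.1 CPM at E16.5. Its peaks were 236 and 3111 bp wide, and its log2 ratio E16.5/E12.5 was 4.31, or 0.59 per kb.

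At Nfix the largest riser lay 5.8 kb downstream of the upstream starts, at chr8:84792402-84796305. It had 3.24 (2.70 to 3.87), 16.5 and 22.2 CPM in peaks of 1224, 1356 and 3904 bp, a log2 ratio E16.5/E12.5 of 2.77 (2.52 to 3.04) and of 1.1 per kb. Per kb its E16.5/E14.5 log2 ratio was -1.1. The share of nuclei in which it was open was 0.402%, 2.04% and 1.99%, and its printed centre holds 3 NFI core sites. A second, at chr8:84729832-84734322, had 4.30, 7.73 and 15.4 CPM, but its peaks widened from 1029 to 4491 bp and per kb it was at -0.28. No Nfix interval was past 2-fold down for E16.5/E12.5, and 1, at the promoter of Lyl1, was for E14.5/E12.5 (-0.01 per kb). The broad intronic interval at chr8:84737288-84746661, with the most counts, had 115, 109 and 92.1 CPM (log2 -0.32, -0.34 per kb), and an exonic one at chr8:84711027-84715069 had 42.9, 37.7 and 34.4 (-0.32, -0.68 per kb).

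At Nfic, the shortest gene, 7 of the 13 common intervals were at promoters of other genes, so its window sum is partly theirs. The largest riser apart from the promoter was chr10:81410812-81418108, which also holds the promoter of the microRNA gene Mir1191b, with 27.0, 36.2 and 57.9 CPM (log2 E16.5/E12.5 1.1, 0.65 per kb). An upstream interval at chr10:81464192-81465759 had 5.12, 9.09 and 8.51 CPM and -0.27 per kb. The largest falls between the first and last stage were under 2-fold: 3.20, 2.43 and 1.78 CPM (-0.61 per kb) at the promoter of Celf5, an RNA-binding protein gene, and 5.80, 2.26 and 3.58 CPM (-0.52 per kb) in an intron at chr10:81452246-81453486. The latter was past 2-fold down at E14.5 (log2 E14.5/E12.5 -1.36), but its peaks were 1241, 471 and 1095 bp wide and per kb that ratio was 0.04. Apart from the Nfic promoters, the interval with the highest CPM summed over the libraries, at the promoter of the cell cycle gene Fzr1, had 45.5, 52.9 and 44.1 CPM (-0.06 per kb).

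**Figure D4:**
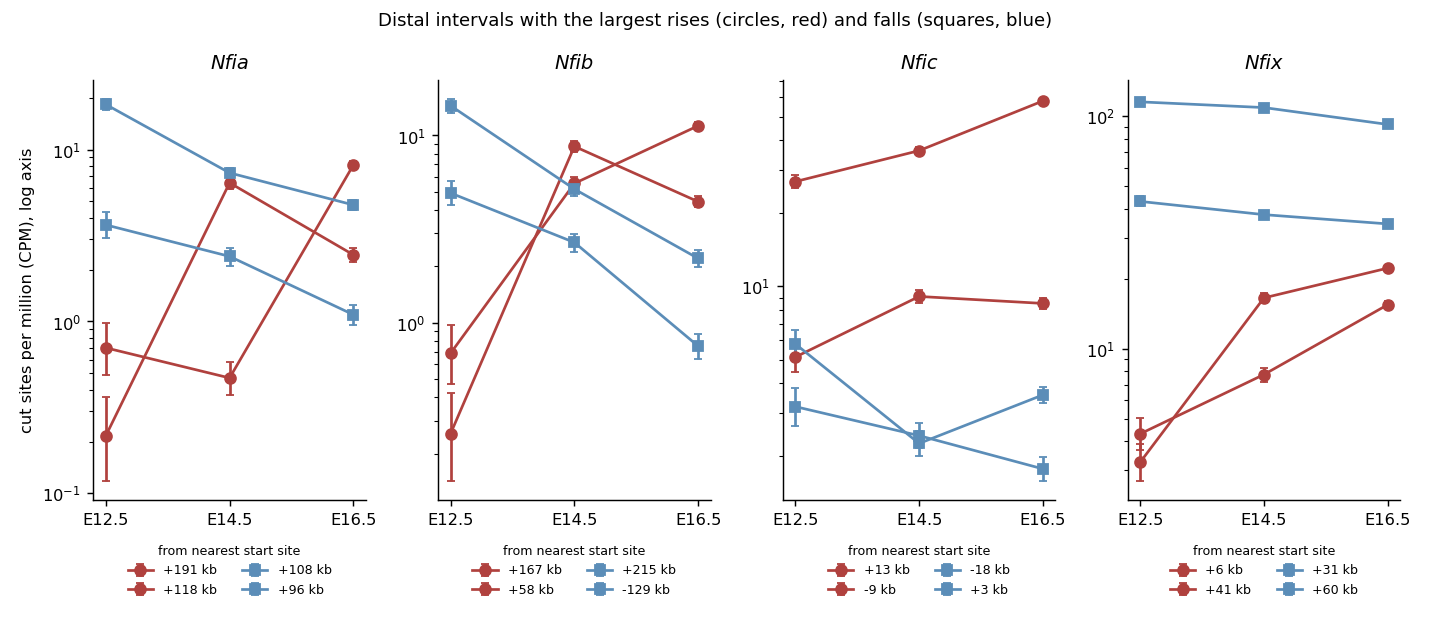
CPM (log axis) by stage of the distal common intervals with the largest rises and falls between the first and last stage at each NFI gene, labelled by distance from the nearest start site, with 95% intervals of counting error. At Nfib the element 58 kb downstream rose from 0.689 to 11.3 CPM. The one 129 kb upstream of the basic starts, inside the gene record, fell from 14.4 to 2.21.

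Regions listed in 1 library only held at most 5.47 CPM. The most accessible were, at E12.5, 2.97 CPM over an exon at the 3′ end of Nfia (chr4:98117923-98119141), 2.57 in the upstream flank of Nfix, 2.51 in Nfib and 0.824 at Nfic. At E16.5 they were 5.47 CPM at Nfib (chr4:82496436-82498572, over an exon 7.8 kb from the starts), 2.62 at Nfia, 2.13 at Nfix and 0.785 at Nfic. The single region listed only at E14.5 was in an Nfia intron, at 2.31 CPM.

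The NFI core site was about as common in the NFI genes' own elements as elsewhere. Within the 300 bases at the centre of each common interval, TTGGC on either strand was found in 61 of 121 (50.4%), against 47.8% of 82930 autosomal common intervals. The full palindrome, TTGGC followed 5 bases on by GCCAA, was present in 1 NFI interval, the broad Nfia promoter interval, and in 0.107% of all intervals. Every full palindrome also counts as core sites. Of the 35 intervals past 2-fold up for E16.5/E12.5, 24 (68.6%) held a core site, and of the 10 past 2-fold down 5 did. Most of the 35 were at Nfib, where 34 of all 58 intervals (58.6%) held one. The share among all autosomal intervals past 2-fold up is not given.

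The other motifs were also searched on both strands, and differences between genes were not tested. The RUNX motif TGTGGT was in 20 of 58 Nfib intervals (34.5%), 4 of 31 at Nfia, 2 of 13 at Nfic and 1 of 19 at Nfix, against 20.04% of all intervals. It was in 14 of the 35 intervals past 2-fold up and in 4 of the 10 past 2-fold down. Most of the 35 were at Nfib, where 34.5% of all intervals held it. The share among all autosomal intervals past 2-fold is not given. The SOX motif ACAATG was in 22 of 121 (18.2%, against 13.0%), AP-1 TGANTCA in 12 (9.92%, against 10.8%) and the E-box CAGCTG in 18 (14.9%, against 20.97%). These are letter matches in a fixed window and not binding sites.

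Within the E16.5 library, nuclei were compared by marker panels to ask whether NFI accessibility differed along the lineages of the limb. After thinning 10537 nuclei to 7187 fragment equivalents each, up to 10% with the most fragments at the genes of a panel were gated: 752 for MP, 949 chondrogenic, 520 tenogenic, 469 fibrogenic and 897 dermal fibrogenic. The panels hold known markers, such as Hic1, Id1 and Osr1 for MP, Sox9, Acan and Col2a1 for chondrogenic, Scx, Mkx and Tnmd for tenogenic, Dpt, Pi16 and Clec3b for fibrogenic and Col7a1, Lef1 and Twist2 for dermal fibrogenic nuclei. A gate is a range of a score and not a cell type, and its edge is not sharp: 232 of the chondrogenic-gated nuclei lay at the cut and 399 nuclei were 1 fragment below it, while 297 of the tenogenic, 294 of the fibrogenic, 274 of the MP and 368 of the dermal fibrogenic gate lay at theirs, with 584, 608, 414 and 580 nuclei 1 fragment below. No NFI gene is in a panel. Gates of the other libraries were made at their own depth, 1309 fragment equivalents at E12.5 and 2529 at E14.5. The cuts were 4, 5 and 8 fragments for the chondrogenic gate and 2, 3 and 6 for the tenogenic one. At E12.5, 401 of 489 tenogenic-gated nuclei lay at the cut, with 1676 nuclei 1 fragment below. Differences in gate values between libraries therefore cannot be told apart from these differences in the gates.

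In chondrogenic-gated nuclei Nfib was lower than in the other nuclei (520 against 631 CPM, log2 -0.28, -0.33 to -0.22) and so was Nfia (399 against 453, -0.18, -0.25 to -0.12). Nfic (346 against 308, 0.17, 0.10 to 0.24) and Nfix (595 against 527, 0.18, 0.12 to 0.23) were higher. Part of that height lay at other genes' promoters, which were left out in an alternative chosen after seeing the data: without these, Nfic was at 0.07 (-0.03 to 0.18), Nfix at 0.15 (0.09 to 0.21), Nfib at -0.25 and Nfia at -0.22. Without the Lyl1 promoter interval alone, Nfix was at 0.11 (0.06 to 0.17). Among 17402 genes, whose median was 0.07 and whose 5th to 95th percentiles ran from -0.53 to 0.53, Nfib stood at the 11.8th percentile, Nfia at the 17.0th, Nfic at the 68.4th and Nfix at the 69.8th. The gated nuclei had fewer fragments before thinning (median 14355 against 17536.5) and more of their thinned fragments in promoter regions (44.7% against 40.5%), and the part of these in the result was not tested. At E14.5 the gate on the same panel gave -0.07 for Nfib (-0.16 to 0.01), -0.03 for Nfia, 0.02 for Nfic and 0.07 for Nfix. These had the same signs at a smaller size, and all 4 intervals held 0. At E12.5, with 232 gated nuclei, the values were 0.08 for Nfia, 0.11 for Nfib, 0.27 for Nfic and 0.03 for Nfix, and these intervals held 0 too.

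In tenogenic-gated nuclei Nfia (log2 0.15, 0.07 to 0.22), Nfib (0.14, 0.07 to 0.20) and Nfix (0.13, 0.06 to 0.20) were higher, beside a gene median of -0.04, and stood between the 85.7th and 87.1st percentile. Nfic was at 0.03 (-0.06 to 0.12). In MP-gated nuclei Nfic (0.21, 0.13 to 0.28) and Nfix (0.16, 0.10 to 0.22) were higher, while Nfia (0.05) and Nfib (0.02) had intervals that held 0. The gene median in that gate was 0.045, and the 5th to 95th percentiles ran from -0.37 to 0.26. Nfic stood at the 88.2nd percentile, Nfix at the 79.0th, Nfia at the 50.7th and Nfib at the 43.9th. MP-gated nuclei also had more of their thinned fragments in promoter regions (45.4% against 40.5%). At E14.5 the MP gate again gave the highest value for Nfic (0.30, 0.19 to 0.40), followed by Nfix (0.12, 0.04 to 0.20), whereas the tenogenic values there (-0.08 to 0.06) all had intervals that held 0. At E12.5 the MP gate gave 0.10 for Nfic (-0.15 to 0.33) and 0.13 for Nfix (-0.04 to 0.29). In the tenogenic gate at E12.5 Nfia was higher (0.25, 0.06 to 0.44), while Nfib (-0.02), Nfic (-0.18) and Nfix (0.11) had intervals that held 0. In fibrogenic-gated nuclei (gene median -0.04) Nfia was at 0.09 (0.005 to 0.169, 80.7th percentile) and Nfix at 0.08 (0.001 to 0.152, 78.9th). Nfib (0.05) and Nfic (-0.03) had intervals that held 0. In dermal fibrogenic-gated nuclei (gene median -0.0087) Nfic was at 0.12 (0.05 to 0.19, 79.5th percentile) and Nfia at -0.07 (-0.135 to -0.008, 34.7th). Nfib (0.04) and Nfix (-0.03) had intervals that held 0 there.

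Single intervals within the windows differed more. Over the 118 NFI intervals with at least 100 thinned fragment equivalents, 19 (16.1%) were past 2-fold down in chondrogenic-gated nuclei, 10 of them at Nfib and 7 at Nfia, where 17.7% of all such autosomal intervals were. Another 3 (2.54%) were past 2-fold up, where 6.91% were. In tenogenic-gated nuclei 10 (8.47%) were up, 6 at Nfib and 4 at Nfia, and 3 down (background 4.34% and 7.78%). In dermal fibrogenic-gated nuclei 6 were up, 5 of them at Nfib, and 4 down (background 5.78% and 7.81%). In fibrogenic-gated nuclei 0 were up and 6 down (background 0.736% and 7.78%) and in MP-gated nuclei 0 up and 2 down (background 0.108% and 3.78%).

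The lowest interval in chondrogenic-gated nuclei was chr4:82572271-82573882 in Nfib, the chondrogenic-low element printed above. It had 2.52 CPM in the gated nuclei and 12.5 in the others (log2 -2.31, -3.19 to -1.56), from 14 and 681 fragment equivalents. In the E14.5 library, which did not enter that choice, it had 1.43 against 5.32 CPM (-1.90, -4.19 to -0.33, from 3 and 182). Over all nuclei the CPM of the same element was higher at each later stage, at 1.27, 5.27 and 11.7 (log2 E16.5/E12.5 3.20, 1.2 per kb). Its printed centre holds 2 NFI core sites. At Nfia the lowest was chr4:98120125-98121273 in the downstream flank (1.80 against 6.74 CPM, log2 -1.91). Of the 19 intervals past 2-fold down at E16.5, 16 were also below 0 at E14.5, 2 of them past 2-fold. Of the 13535 autosomal intervals past 2-fold down in that gate, 80.1% were below 0 at E14.5 and 25.5% were past 2-fold down there. At E12.5, 7 of the 19 were below 0 and 7 had no ratio. Of the 13535, 3134 (23.2%) were below 0 at E12.5 and 5509 had no ratio.

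The Nfib interval at chr4:82615454-82616136, the tenogenic-high element printed above, was highest in 2 gates. This interval lies 110.0 kb upstream of the basic Nfib starts, inside the gene record. It had 8.55 against 2.05 CPM in tenogenic-gated nuclei (log2 2.06, 1.39 to 2.68) and 5.75 against 2.04 in chondrogenic-gated nuclei (1.5, 0.88 to 2.07), from 26 and 32 gated fragment equivalents. At E14.5 the tenogenic value was -0.45 (-3.56 to 1.52), from 2 gated fragment equivalents. The chondrogenic value there was 1.07 (-0.89 to 2.57), from 4. The centre holds 3 NFI core sites and 1 E-box. The Nfia riser at chr4:97895642-97896429 was also high in tenogenic-gated nuclei (8.23 against 2.49 CPM, log2 1.72, 1.05 to 2.34). At E14.5 its value was 0.33 (-0.36 to 0.95), from 23 gated fragment equivalents. The lowest interval of any gate was also tenogenic: chr4:98031564-98032964, in an Nfia intron, had 0.987 against 5.58 CPM (log2 -2.50, -4.79 to -0.94), from 3 gated fragment equivalents, and was at 0.0084 at E14.5. Of the 10 intervals past 2-fold up in tenogenic-gated nuclei at E16.5, 7 were above 0 at E14.5, with 1 past 2-fold. Of all 3318 autosomal intervals past 2-fold up in that gate, 76.6% were above 0 at E14.5 and 9.07% past 2-fold up there. At E12.5, 3 of the 10 were above 0 and 4 had no ratio, where 1672 (50.4%) of the 3318 were above 0 and 499 had no ratio. Of the intervals past 2-fold down, 1 of 3 in the tenogenic, 2 of 6 in the fibrogenic and 2 of 4 in the dermal fibrogenic gate were below 0 at E14.5, where 64.6%, 52.02% and 76.6% of all such autosomal intervals were. Of those past 2-fold up in the dermal fibrogenic gate, 4 of 6 were above 0 at E14.5, where 85.9% were.

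Other elements differed in the dermal fibrogenic, fibrogenic and MP gates. In dermal fibrogenic-gated nuclei chr4:82694871-82696574 had 19.5 against 7.07 CPM (log2 1.46, 1.13 to 1.78), and 10.7 against 5.64 at E14.5 (0.92, 0.25 to 1.54). This interval lies in the Nfib gene record, 190.0 kb upstream of the basic starts and near the record's 5′ end. The exonic Nfia interval chr4:98080400-98083656 had 15.1 against 5.66 CPM (1.42, 1.04 to 1.78) in these nuclei, but 2.97 against 6.63 in fibrogenic-gated nuclei (-1.16, -2.38 to -0.17). At E14.5 both signs were turned, with -0.42 (-2.33 to 1.0) in the dermal fibrogenic gate and 0.94 (-0.72 to 2.23) in the fibrogenic gate, from 4 and 5 gated fragment equivalents. The 2 highest in the fibrogenic gate also turned, chr4:82634026-82634966 from 0.99 to -0.25 at E14.5 and chr4:82644683-82645564 from 0.92 to -1.17. So did the lowest in the dermal fibrogenic gate, chr4:82663546-82665244, from -1.40 to 0.50. The E14.5 intervals of all these held 0. In MP-gated nuclei the highest was the Nfib promoter interval, with 107 against 73.2 CPM (0.55, 0.41 to 0.69), and 115 against 88.6 at E14.5 (0.38, 0.19 to 0.56). The Nfix interval that was highest in chondrogenic-gated nuclei (48.4 against 20.9 CPM, log2 1.21) lies at the promoter of Lyl1, a blood transcription factor gene, at chr8:84697501-84702301. Its value was 0.18 (-0.43 to 0.73) at E14.5 and 0.02 (-1.31 to 1.09) at E12.5.

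**Figure D5:**
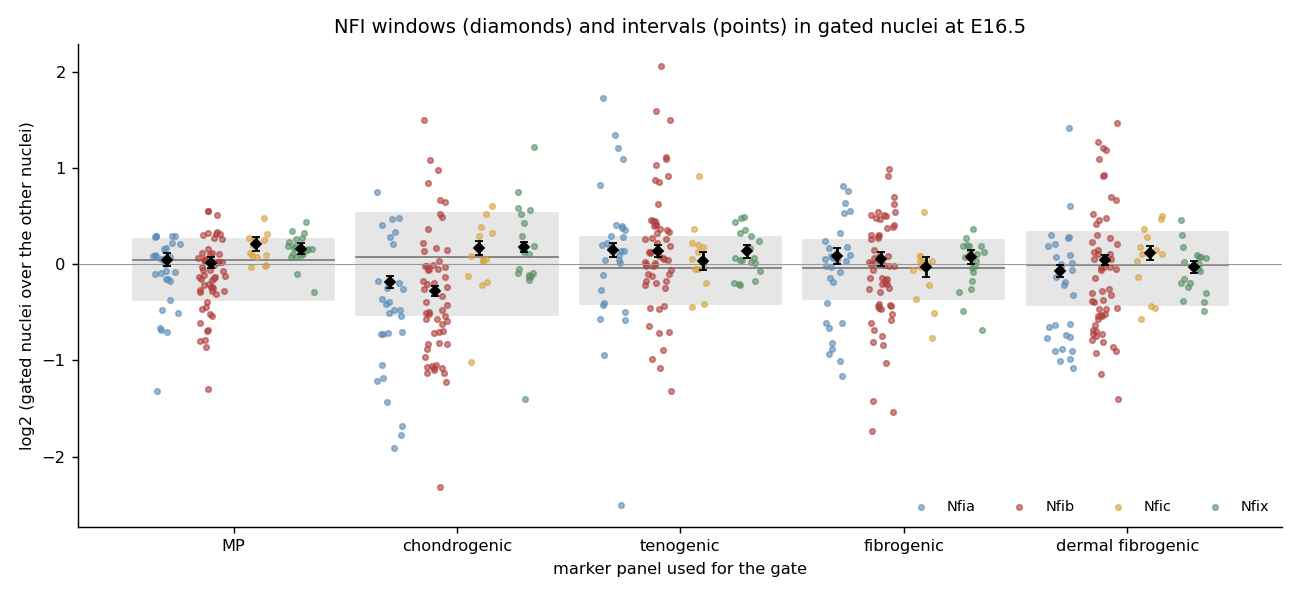
Log2 ratio of accessibility in gated over other nuclei of the E16.5 library for each marker panel: black diamonds are the 4 NFI windows with 95% intervals of counting error, coloured points their intervals with at least 100 thinned fragment equivalents, and the grey band the 5th to 95th percentile of genes with their median as a line. In the chondrogenic gate Nfib (-0.28) and Nfia (-0.18) lie below 0 and Nfic (0.17, or 0.07 without other genes' promoters) and Nfix (0.18) above it.

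Genes that NFI factors are linked to in other tissues were read in the same way. Of a list of 12, of which Sox9 and Sox6 are also in the chondrogenic panel and Pax7 in the myogenic one, 0 were past 1.5-fold up and 2 past 1.5-fold down for E16.5/E12.5, beside 5.08% and 6.84% of all genes, with a list median of -0.16 and 2 of 12 above 0. Sox6, a transcription factor of cartilage and slow-muscle repression, had 319, 203 and 189 CPM (log2 -0.75), and Fabp7, a fatty acid binding protein of radial glia, 26.5, 18.9 and 17.1 (-0.63). Sox9 (86.0, 96.4 and 85.3), the master factor of chondrogenesis, the Notch target Hes1 (190, 208 and 188 CPM) and Nfatc4 (194, 211 and 201), a calcium-responsive factor, stayed within a log2 ratio of 0.06 between E12.5 and E16.5. Ezh2, the Polycomb methyltransferase, had 64.0, 80.4 and 55.7 CPM and the satellite cell factor Pax7 43.7, 32.0 and 40.6. The muscle enzyme genes Eno3 (log2 -0.12) and Ckm (-0.32), and the astrocyte genes Gfap (0.06), Aqp4 (-0.30) and Apoe (-0.22), completed the list. Over the E14.5/E12.5 step Sox6 (-0.65) and Aqp4 (-0.75) were past 1.5-fold down, and over the E16.5/E14.5 step none of the 12 was past it. The list medians of these steps, 0.09 and -0.15, lay beside gene medians of 0.12 and -0.13.

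Among genes of similar total accessibility, those with the course most like each member over the 3 libraries were Zbtb7c and Lrig1 for Nfia, Clmp and Lmna for Nfib, Dnajb12 and Dot1l for Nfic, and Dvl2 and Acadvl for Nfix. Likeness was the distance between the pairs of log2 step ratios, which was at most 0.044 for these 8 genes. With 3 libraries and 302 to 2716 candidates a member, such a distance is a description only.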

How the data were processed

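Nuclei of tdTomato+ MPs were profiled by single-cell ATAC-seq on the 10x Genomics platform. The deposited matrices hold counts of transposase cut sites per peak and nucleus. The authors made them with Cell Ranger ATAC against mm10 and called peaks in each library separately; the submitters' notes give version 1.1.0, while the file headers give 1.0.1 for E12.5 and E14.5 and 1.2.0 for E16.5. The counts are not normalised.

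Peaks sharing at least 1 bp were merged, and cut sites in merged regions with a peak of every library (82930 on autosomes) were scaled to CPM. Gene windows came from GENCODE vM21 basic genes with 20 kb either side. Promoters were 1000 bp upstream to 100 bp downstream of the start site of a transcript in that basic set. Sequences were read from GRCm38, which the 6 RefSeq promoter entries found for Nfia, Nfic and Nfix matched (none was found for Nfib). Entries are mostly even numbers (89.5% to 94.1%), so counting intervals used fragment equivalents: exact Poisson for a level, exact binomial for a share and conditional binomial for a ratio, all at 95%. Log2 ratios of shares carry a normal-approximation interval. For genes, the same sums were taken over 17506 autosomal protein-coding genes; 102 intervals with a count of 0 in E12.5 or E16.5 were left out of that ratio. No doublets were removed. Analyses ran in Python 3.11.15 with numpy 2.4.6, scipy 1.17.1 and pysam 0.24.0, and the functions were tested on simulated data.

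No stage difference was tested, since each stage is 1 library. Alternatives to the scaling, interval matching, peak width, thinning and gate size were computed. All 4 members were named. Intervals were named by rule: every common promoter interval, and among other common intervals with at least 200 fragment equivalents the 2 largest rises and falls and the one with the most counts (summed CPM). Also named were the strongest region called in 1 library only, every gene of the NFI-linked list, and the 2 genes nearest in both step ratios. The Nfia region called at E12.5 and E16.5 only was named outside this rule. The intervals named in gates were taken from the 2 highest and 2 lowest of each gate whose counting interval did not hold 0, and not all of these are named. They and the printed elements were chosen after their values were seen. The members and lists were chosen with earlier results of these data known.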

Additional observations from a re-analysis of the deposited data

How the results depend on the processing

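Stage changes of the window sums depended on how peaks were matched between libraries. Per kb of called width the E14.5/E12.5 log2 ratio of Nfia turned to 0.45, the E16.5/E14.5 ratios to -0.54 for Nfia, -0.71 for Nfib, -0.61 for Nfic and -0.83 for Nfix (-0.0017 as reported), and the E16.5/E12.5 ratios to -0.089 for Nfia, -0.13 for Nfib and -0.26 for Nfix, with Nfic at 0.013. Over intervals of similar peak width, E14.5/E12.5 turned to 0.69 for Nfia and E16.5/E14.5 to -0.23 for Nfia and -0.039 for Nfib, while E16.5/E12.5 was 0.46 for Nfia, 0.30 for Nfib, 0.44 for Nfic and 0.21 for Nfix. With a reciprocal overlap of 50%, E14.5/E12.5 turned to 0.35 for Nfia and E16.5/E14.5 to -0.14 for Nfib, and E16.5/E12.5 was 0.57, 0.15, 0.18 and 0.33 for Nfia, Nfib, Nfic and Nfix.

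Median ratio scaling left the E16.5/E12.5 ratios at 0.087, 0.36, 0.35 and 0.14, but took E14.5/E12.5 to -0.24, 0.073, 0.12 and 0.016 and E16.5/E14.5 to 0.33, 0.29, 0.23 and 0.13 for Nfia, Nfib, Nfic and Nfix. The remaining values are all for E16.5/E12.5 unless named. In the binarised matrix Nfia was at 0.0076 and Nfic at 0.26, and the E16.5/E14.5 ratio of Nfic turned to -0.0058. The gene body alone gave 0.049, 0.31, 0.51 and 0.16 for Nfia, Nfib, Nfic and Nfix. Without promoters of other genes Nfib was at 0.39, Nfic at 0.41 and Nfix at 0.20. All peaks of each library gave 0.26 for Nfia, 0.40 for Nfib and 0.18 for Nfix. Peaks open in at least 1% of nuclei gave 0.021 for Nfia and 0.13 for Nfib. The E16.5/E14.5 ratio of Nfib was 0.0047 with such peaks and 0.34 with all peaks. That of Nfia was 0.062 in the binarised matrix and 0.41 with all peaks. That of Nfic was 0.0095 at similar peak width and 0.00014 with a reciprocal overlap of 50%. Without the deepest 5% of nuclei Nfic was at 0.42. Intervals with a peak at E12.5 and E16.5, an alternative chosen after seeing the data, gave 0.13 for Nfia and 0.18 for Nfix.

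Of the 35 intervals past 2-fold up and 10 past 2-fold down, 15 and 9 had at least 100 fragment equivalents in every library. The counts were 12 up and 5 down per kb, and 4 up and 1 down at similar width (chosen after seeing the data). At 1.5-fold they were 47 up and 19 down. No share over all autosomal intervals is given for the 100-fragment or the 1.5-fold counts, so these cannot be set against a background. The share ratio was 0.25, 0.36, 0.49 and 0.26 for Nfia, Nfib, Nfic and Nfix with cut sites thinned in place of fragment equivalents, and 0.41, 0.38, 0.70 and 0.37 without thinning. Summed over all 4 windows at E16.5, the main setting gave 0.10 for the MP gate, -0.05 for the chondrogenic and 0.12 for the tenogenic gate. The MP gate gave 0.064 at the top 20% and 0.041 without promoters. The chondrogenic gate gave -0.10 at the top 5% and the tenogenic gate 0.072 at the top 20%. The cause of the other changes was not tested; those per kb and at similar width follow from the division by width and the smaller set of intervals.

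Counting error was small for windows but wide for elements with under 20 fragment equivalents. With 1 library per stage the spread between embryos or sorts is unknown. No paired analysis was possible because each stage is a single library.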
